A study of Sus scrofa with 16 samples.

Results

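The skeletal muscle fibre genes described here are 10 genes that build or fuel the contractile apparatus: MYH1, MYL1, MYLPF, TNNT3 and TNNI2 of fast fibres, MYH7, TNNT1 and TNNI1 of slow fibres, and ACTA1 and CKM of all fibres. They were taken as all non-control probes whose gene name in the scanner files is one of these 10, with no filter on dim probes, which gave 73 of the 43603 probes on the array. Fast fibre genes had 32 probes, slow fibre genes 14, and ACTA1 and CKM together 27. The genes were chosen because of their levels on these arrays, so their levels and their difference between the lines are given as a description.

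The arrays measured subcutaneous adipose tissue of 16 pigs (Sus scrofa) with a body weight of 20 kg, each hybridised singly to an Agilent 1-colour array. The low-RFI group (strain RFIneg) held 8 pigs and the high-RFI group (strain RFIpl) held 8 pigs, and both had free access to feed. Residual feed intake (RFI) is the feed an animal eats beyond what its growth and maintenance predict, so low-RFI pigs are the more feed-efficient line. The age, sex and litter of the pigs are not given in the sources used here, and nothing says how the tissue was dissected. Values are log2 signals minus the 75th percentile of the array, so 0 is the 75th percentile of that array, and levels of different probes are not set against each other. Between 68.7% and 80.3% of spots were well above background on an array, and no spot was saturated. The adipocyte markers ADIPOQ, FABP4, PPARG and CEBPA were well above background on all 16 arrays.

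In striated muscle, myosin heavy chains (MYH genes) pull on actin filaments, of which ACTA1 is the skeletal form, and myosin light chains (MYL1, MYLPF) bind the myosin neck. Troponin sits on the actin filament and makes contraction depend on calcium, with TNNT genes encoding the tropomyosin-binding subunit and TNNI genes the inhibitory subunit. Slow, oxidative fibres and fast, glycolytic fibres use different genes for most of these proteins, while muscle creatine kinase (CKM), which regenerates ATP from phosphocreatine, serves both. Subcutaneous fat of the pig lies over the trunk muscles, and in some places thin muscle sheets run within or beside it.

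Probe sequences are printed for some pairs of member probes. The first pair holds the fast and the slow troponin T probes at matching places of their transcripts, where 39 of 58 aligned bases are identical and capitals mark those that differ.
TNNT3 probe: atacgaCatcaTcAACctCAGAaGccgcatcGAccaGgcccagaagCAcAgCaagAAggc
TNNT1 probe: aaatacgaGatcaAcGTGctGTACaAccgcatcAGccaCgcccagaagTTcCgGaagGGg
The other pair are MYLPF probes of opposite strands, with capitals on the 38 bases that are complementary to each other.
MYLPF probe at 149: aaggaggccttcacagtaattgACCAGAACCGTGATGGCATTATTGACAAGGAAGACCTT
MYLPF probe at 429: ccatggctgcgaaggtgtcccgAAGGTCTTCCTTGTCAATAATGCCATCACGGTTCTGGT

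Signal of the 10 genes was concentrated on 3 of the 16 arrays. With each gene represented by its probe of highest mean signal, an array was taken to carry muscle RNA when at least 5 of the 10 genes lay 1 log2 unit or more above their 16-array median. Low-RFI replicate 8 had 10 genes past that mark, low-RFI replicate 6 had 7 and high-RFI replicate 7 had 6, and each of the other 13 arrays had 0 or 1. The mean level over the 10 genes was 6.97 on low-RFI replicate 8, -0.35 on low-RFI replicate 6 and -1.17 on high-RFI replicate 7, against -2.99 to -2.39 on the other 13 (6 low-RFI and 7 high-RFI arrays). Those 13 are called the arrays without muscle RNA below, a name that rests on this rule alone. High-RFI replicate 7 was not marked at 2 log2 units or with normexp background correction, with 3 of 10 genes past the mark in each. On the other muscle lists 43 of 56 genes passed on low-RFI replicate 8, 15 on low-RFI replicate 6 and 12 on high-RFI replicate 7, against 0 to 6 on the other arrays, so low-RFI replicate 8 alone had most of those genes past the mark. The arrays sat on 4 slides with 4 arrays each, 2 of each line, and low-RFI replicate 6 and high-RFI replicate 7 were both on slide 3.

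On low-RFI replicate 8 all 73 probes were at least 1 log2 unit above the median of the arrays without muscle RNA, with differences of 5.26 to 15.43 and a median of 11.35. For 5 of the 73 probes none of the 13 arrays was well above background and for 38 only some were, so the size of these differences depends on dim signals and gives no order of the genes. Of all probes on the array 4.46% passed that mark there. All 73 were also above each of the 13 arrays without muscle RNA, which held for 5.31% of all probes. On low-RFI replicate 6, 61 probes were 1 log2 unit or more above the median (2.94% of all probes) and 62 were above all 13 arrays (3.98%), with a median difference of 3.50. On high-RFI replicate 7 the counts were 56 (3.83%) and 59 (5.46%), with a median difference of 2.60. The members were chosen from such values, so nothing is read from these shares.

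**Figure D1:**
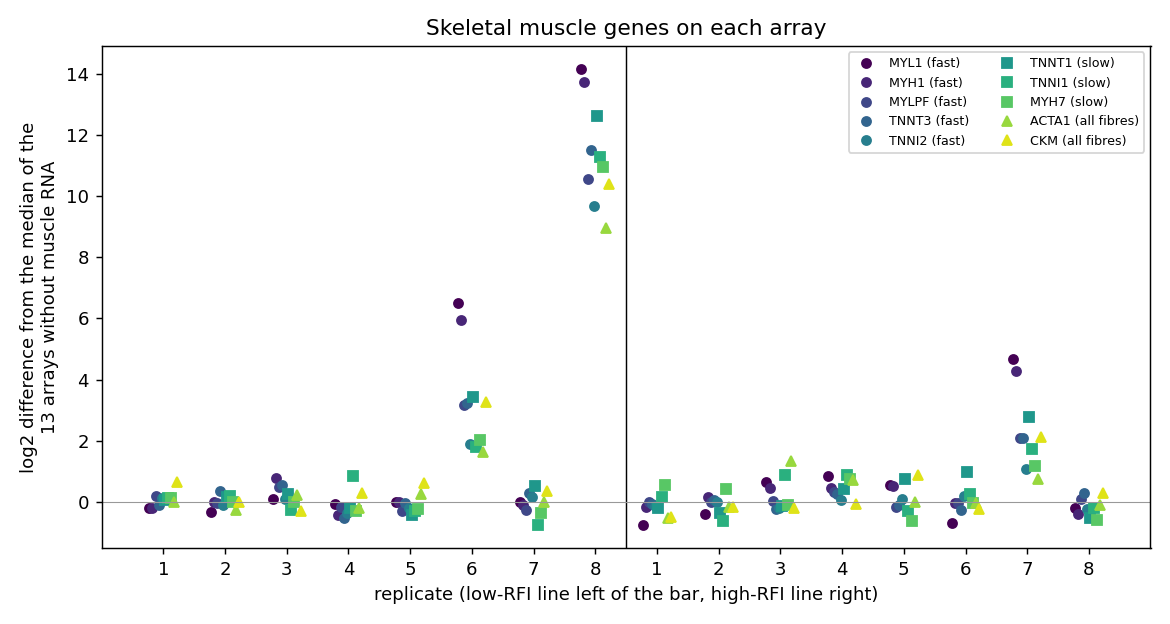
Difference of each gene from its median over the 13 arrays without muscle RNA (log2, median over the gene's probes), for the 8 low-RFI arrays on the left and the 8 high-RFI arrays on the right. All 10 genes stand highest on low-RFI replicate 8, all 10 are also raised on low-RFI replicate 6 and high-RFI replicate 7, and the other arrays scatter around 0.

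MYL1, the essential light chain of fast myosin, read 7.99 on low-RFI replicate 8 and 0.78 on low-RFI replicate 6 by its probe at base 711, and the other 6 low-RFI arrays read -5.86 to -4.69 (median -5.05). The same probe read -1.06 on high-RFI replicate 7, and the other 7 high-RFI arrays read -5.90 to -4.57 (median -5.38). The 3 arrays with muscle RNA stood apart from the rest, and the lines overlapped among the rest. All 15 MYL1 probes were above the 13 arrays on each of the 3 arrays. For MYL1 3 probes were not well above background on any of those 13, so low-RFI replicate 8 exceeded the detection floor of the 13 by at least 3752-fold for the probe at base 109 and at least 9412-fold for that at base 567. Its probes at bases 411 and 415 share 29 of 32 aligned bases with a probe for MYL6, the light chain of smooth and non-muscle myosin, and were well above background on 1 and 2 of the 13 arrays.

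MYH1, a fast myosin heavy chain, read 6.24 on low-RFI replicate 8 and -1.50 on low-RFI replicate 6 by its probe at base 5231, against -7.67 to -6.44 on the other low-RFI arrays (median -7.22). High-RFI replicate 7 read -2.96, and the other high-RFI arrays read -8.76 to -6.34 (median -7.24). The groups without muscle RNA overlapped. Of the 7 MYH1 probes 4 also list MYH2 or MYH4 transcripts in the array annotation, so fast heavy chains are not fully told apart. The MYH1 probe at base 247 behaved otherwise: it stood 7.0 higher on low-RFI replicate 8 but differed from the median by 0.30 on low-RFI replicate 6 and by -0.06 on high-RFI replicate 7. The probe at base 5292 read -1.21 on high-RFI replicate 2, where the other 12 arrays without muscle RNA lay between -8.13 and -6.12, and no other MYH1 probe was over 1 log2 unit above its own median on that array.

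MYLPF, the regulatory light chain of fast myosin, read 8.80 on low-RFI replicate 8 and 2.03 on low-RFI replicate 6 by its probe at base 605, with -1.97 to -1.43 on the other low-RFI arrays (median -1.78). On high-RFI replicate 7 it read 0.79, with -1.92 to -1.74 on the other high-RFI arrays (median -1.81). The 13 arrays without muscle RNA lay within a narrow band, and the 3 others were all above it. The probe pair of opposite strands printed above both rose: the sense probe at base 149 by 10.53, 2.48 and 1.42 on low-RFI replicate 8, low-RFI replicate 6 and high-RFI replicate 7, and the reverse probe by 9.16, 2.47 and 1.61. Which strand the labelled RNA of the reverse probe came from was not tested.

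The fast troponins followed. TNNT3 read 7.88 on low-RFI replicate 8 and 0.16 on low-RFI replicate 6 by the printed probe, against -5.90 to -3.61 on the other low-RFI arrays (median -4.87). It read -1.68 on high-RFI replicate 7, against -5.24 to -4.49 on the other high-RFI arrays (median -4.83). TNNI2 read 6.46 on low-RFI replicate 8 and -1.31 on low-RFI replicate 6 by its probe at base 325, against -3.49 to -2.93 on the other low-RFI arrays (median -3.15). It read -2.16 on high-RFI replicate 7 and -3.31 to -2.97 on the other high-RFI arrays (median -3.19). By these probes both genes separated the 3 arrays from the rest and not the lines among the rest. The TNNT3 probe at base 106 separated only low-RFI replicate 8. It read -6.11 on low-RFI replicate 6 and -7.60 on high-RFI replicate 7, within the -8.93 to -5.90 of the 13 arrays.

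Slow fibre genes rose on the same arrays. MYH7, the slow and cardiac myosin heavy chain, read 7.84 on low-RFI replicate 8 and -0.21 on low-RFI replicate 6 by its probe at base 5930, against -2.85 to -1.63 on the other low-RFI arrays (median -2.49). High-RFI replicate 7 read -1.25, and the other high-RFI arrays -3.62 to -1.79 (median -2.40). TNNT1, slow troponin T, read 7.76 on low-RFI replicate 8 and -0.99 on low-RFI replicate 6 by the printed probe, against -4.17 to -3.14 on the other low-RFI arrays (median -3.51). It read -1.56 on high-RFI replicate 7 and -3.83 to -2.81 on the other high-RFI arrays (median -3.55). TNNI1, slow troponin I, read 5.21 on low-RFI replicate 8 and -4.01 on low-RFI replicate 6 by its probe at base 587, against -6.31 to -5.04 on the other low-RFI arrays (median -5.38). It read -4.22 on high-RFI replicate 7 and -6.56 to -4.94 on the other high-RFI arrays (median -5.66). Of the 14 slow fibre probes 12 were above all 13 arrays on low-RFI replicate 6 and 11 on high-RFI replicate 7, beside 30 and 29 of the 32 fast fibre probes.

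The slow and fast fibre mix was read from the signal above baseline, which is the linear signal minus its median over the 13 arrays without muscle RNA, as a percent of the same quantity on low-RFI replicate 8. Each probe is thereby compared with itself. On low-RFI replicate 6 the median over genes was 0.442% for the 5 fast genes, 0.147% for the 3 slow genes and 0.511% for ACTA1 and CKM. On high-RFI replicate 7 it was 0.132% for fast genes, 0.0892% for slow genes and 0.272% for ACTA1 and CKM. Relative to low-RFI replicate 8, the fast to slow ratio was 3.01 on low-RFI replicate 6 and 1.48 on high-RFI replicate 7. Single probes overlapped: on low-RFI replicate 6 fast probes ran from 0.184% to 0.854% and slow probes from 0.0922% to 0.296%. The percent also differed along a transcript. On that array it was 0.137% for the MYH7 probe at base 3242 and 0.296% for that at base 5930. The part of probe position in the fast to slow ratio was not tested. These are single arrays with no replicate error, and the percentages compare signals and not amounts of tissue.

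Gene by gene, low-RFI replicate 6 had more signal above baseline than high-RFI replicate 7 for all 10 genes. The ratio of low-RFI replicate 6 to high-RFI replicate 7 was 4.49 for MYH1, 3.56 for MYL1, 2.69 for TNNT3, 2.53 for MYLPF and 2.45 for TNNI2. It was 1.74 for MYH7, 1.70 for TNNT1 and 1.10 for TNNI1. It was 1.97 for CKM and 1.82 for ACTA1. These ratios divide gene medians, which can come from different probes on each array. By them the 5 fast genes all had a higher ratio than the 3 slow genes. ACTA1 and CKM fell between, a place that depends on how the ratio was formed. For CKM the median on low-RFI replicate 6 was the probe at base 1128, with 0.415% there and 0.165% on high-RFI replicate 7. On high-RFI replicate 7 it was the probe at base 1163, with 0.210% there and 0.323% on low-RFI replicate 6. The place of ACTA1 and CKM differed between their probes. As percent of low-RFI replicate 8, the ACTA1 probe at base 1217 had 1.02% on low-RFI replicate 6 and 0.356% on high-RFI replicate 7. The ACTA1 probe at base 904 had 0.251% and 0.331%. For CKM the probe at base 1481 had 1.12% and 0.435%, and that at base 1157 had 0.301% and 0.238%. Among other fibre genes whose signal was above all 13 arrays on both arrays, MYL2, the slow and ventricular regulatory light chain, had a ratio of 1.86. MYH4, MYOZ1 and PGAM2, of fast fibres, had ratios of 2.26, 2.36 and 1.99. Genes not above all 13 arrays on both did not keep this order. TNNC1, the troponin C of slow fibres and heart, had a ratio of 2.90, above those of the 3 fast genes. TNNC2, fast troponin C, had a ratio of 0.0823. CSRP3, a slow fibre Z-disc protein, had a level of -7.13 on low-RFI replicate 6 and -4.40 on high-RFI replicate 7, against -8.94 to -5.14 on the 13 arrays.

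**Figure D2:**
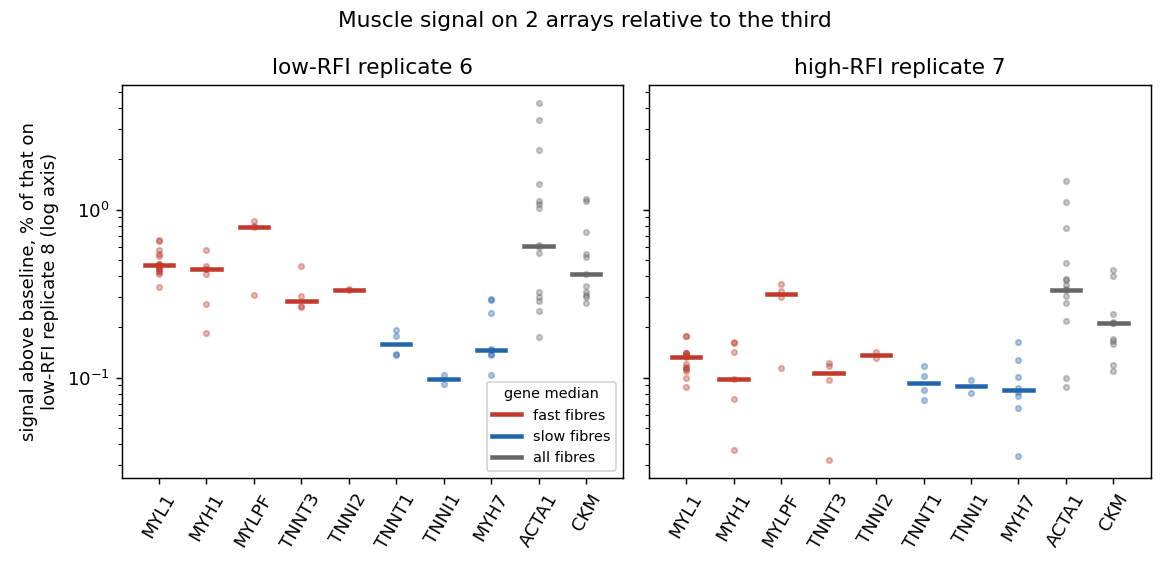
Signal above the baseline of the 13 arrays without muscle RNA, as a percent of that on low-RFI replicate 8 (log axis), for low-RFI replicate 6 on the left and high-RFI replicate 7 on the right; dots are probes, bars are gene medians, and 1 and 3 probes at or below 0 are not drawn. Medians of fast fibre genes lie above those of slow fibre genes on low-RFI replicate 6 (0.287% to 0.793% against 0.0981% to 0.158%), and the groups are closer on high-RFI replicate 7 (0.0985% to 0.313% against 0.0845% to 0.0929%). Single probes of the groups overlap on both arrays.

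ACTA1 probes fell into a pair of sets that behaved differently without muscle RNA. Its 16 probes are ordered along the transcript, and the 9 that start before base 1217 were well above background on all 13 arrays without muscle RNA. Of the 7 that start at base 1217 or later, 1 was. The division was made after the values were seen. The 7 later probes rose by 12.32 to 14.52 on low-RFI replicate 8, by 7.18 to 8.43 on low-RFI replicate 6 and by 5.64 to 6.82 on high-RFI replicate 7, and each was above all 13 arrays on each of the 3. The 9 earlier probes rose by 5.26 to 9.08 on low-RFI replicate 8, and their median differences were 0.36 on low-RFI replicate 6 and 0.18 on high-RFI replicate 7, where 3 and 2 of them were above all 13 arrays.

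**Figure D3:**
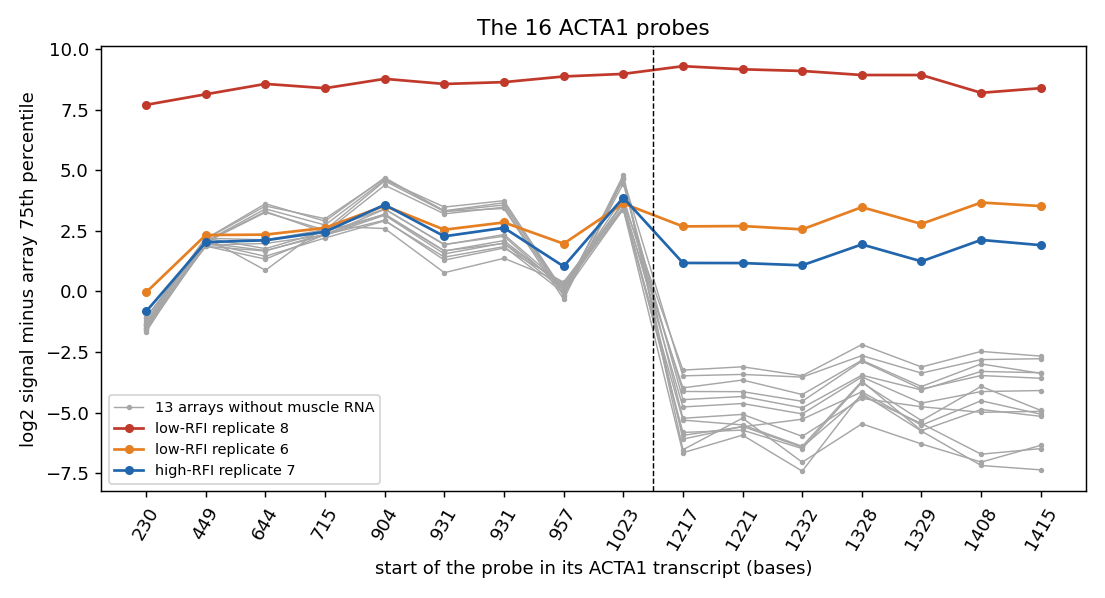
Level of the 16 ACTA1 probes, in order of their start in the transcript, on low-RFI replicate 8, low-RFI replicate 6, high-RFI replicate 7 and the 13 arrays without muscle RNA (grey); the dashed line separates the 9 earlier from the 7 later probes. Low-RFI replicate 8 is high throughout, and the other 15 arrays come together left of the line and part right of it.

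The ACTA1 probe at base 644 read 8.56 on low-RFI replicate 8, 2.34 on low-RFI replicate 6 and 2.11 on high-RFI replicate 7. On the arrays without muscle RNA it read 3.26 on low-RFI replicate 1 and 0.87 to 2.13 on the other 5 low-RFI arrays. It read 3.61, 3.40, 3.30 and 3.52 on high-RFI replicates 2, 3, 4 and 6, and 1.45, 1.66 and 1.97 on high-RFI replicates 1, 5 and 8. So 5 arrays were high and 8 low. A probe for ACTA2, the actin of smooth muscle, is closely similar in sequence to this ACTA1 probe, so their levels are not independent readings. It read 4.51 on low-RFI replicate 1, 4.17 to 4.5 on high-RFI replicates 2, 3, 4 and 6, and 2.59 to 3.28 on the other 8. Over these 13 arrays 5 of the 9 earlier ACTA1 probes correlated with it at r = 0.959 to 0.995. The other earlier probes did not follow it so closely. They gave r = 0.0014 at base 230, 0.28 at base 449, 0.65 at base 715 and -0.77 at base 957. The 7 later probes gave r = -0.40 to -0.05. CNN1, a smooth muscle calponin on another probe, correlated with the ACTA2 probe at r = 0.984. Smooth muscle markers did not all behave alike. The ACTA1 probe at base 644 gave r = 0.985 with CNN1, 0.906 with MYLK, 0.935 with MYL9 and -0.280 with SMTN. These coefficients describe 13 arrays that share their scaling. Both probes at base 931 also align with an ACTA2 probe and the probe at base 449 with a beta actin probe (50 of 57 aligned positions identical), so signal of the earlier probes cannot be assigned to ACTA1 alone.

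**Figure D4:**
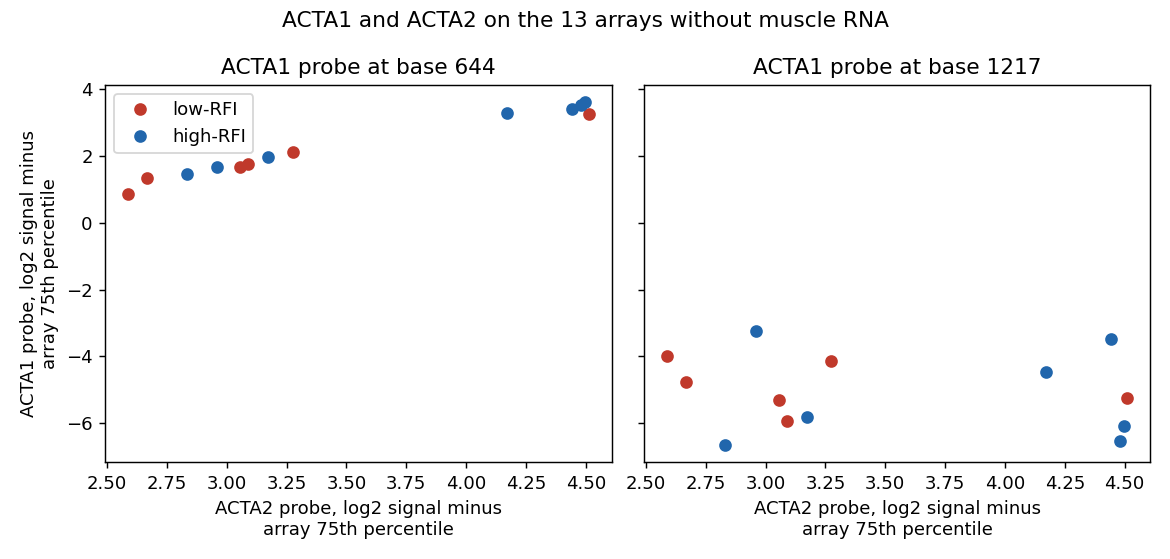
Level of 2 ACTA1 probes against the level of an ACTA2 probe on the 13 arrays without muscle RNA, in low-RFI and high-RFI pigs (all axes log2 signal minus the array's 75th percentile). The probe at base 644 rises with ACTA2 and shows 5 high and 8 low arrays, and the probe at base 1217 shows no such order.

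The later ACTA1 probes also varied among the arrays without muscle RNA. The probe at base 1217 read 9.29 on low-RFI replicate 8, 2.68 on low-RFI replicate 6 and 1.17 on high-RFI replicate 7. The other low-RFI arrays read -5.94 to -3.98 (median -5.0) and the other high-RFI arrays -6.66 to -3.25 (median -5.82). The highest 2 of the 13 were high-RFI replicates 5 and 3, at -3.25 and -3.48, and the lowest was high-RFI replicate 1. It was well above background on 8 of the 13.

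CKM read 8.57 on low-RFI replicate 8 and 2.18 on low-RFI replicate 6 by its probe at base 1481, against -2.18 to -0.92 on the other low-RFI arrays (median -1.41). High-RFI replicate 7 read 0.95, against -2.55 to -0.50 on the other high-RFI arrays (median -2.01). Of its 11 probes 10 were above all 13 arrays on both low-RFI replicate 6 and high-RFI replicate 7. Their rise on low-RFI replicate 6 ran from 0.68 for the probe at base 605 to 4.05, so CKM probes disagreed in size.

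Some members gave signal without muscle RNA. Of the 73 probes 30 were well above background on all 13 arrays (41.1%, where 64.6% of all probes were), 38 on some of them and 5 on none (6.85%, where 12.7% of all probes were). The 30 were 10 of ACTA1, 10 of CKM, 3 of MYLPF, 3 of MYH7, both of TNNI2, 1 of TNNT1 and 1 of MYH1. No probe of MYL1, TNNT3 or TNNI1 was among them. With the 95th percentile of negative control spots as the limit 46 probes passed on all 13, among them 2 of MYL1, 2 of TNNT3 and 1 of TNNI1. The share of all probes past that limit is not given here, so nothing is read from the 46. Whether these genes counted as giving signal there turned with the limit. By the scanner's call the 5 dark probes were 3 of MYL1, 1 of TNNT3 and 1 of MYH1. Without the 9 earlier ACTA1 probes the count on all 13 by that call was 21 of 64, beside the same 64.6% of all probes. The 2 TNNI2 probes ranged over 0.56 and 0.64 log2 units across the 13 arrays, a gene median of 0.60 that was the lowest of the 10 genes. Single probes of other genes were steadier, with 0.36 for ACTA1 at base 449 and 0.54 for MYLPF at base 605, while MYL1 probes ranged over 1.33 to 4.20 and MYH1 probes over 0.76 to 6.92.

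Among the arrays without muscle RNA, the other 2 on slide 3 had the most members above background. Low-RFI replicate 3 had 56 of the 73 probes well above background and high-RFI replicate 4 had 65, against 36 to 49 on the 11 arrays of the other slides. For the fast fibre probes these counts were 18 and 24 of 32, against 8 to 12. The share of all probes above background was 77.5% on low-RFI replicate 3 and 80.3% on high-RFI replicate 4, against 68.8% to 78.5% on those 11 arrays. The part of overall brightness, the slide or muscle RNA in these counts was not tested.

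Other skeletal muscle genes were read from 7 lists that leave out the 10 members. On low-RFI replicate 8, 9 of 9 fast fibre, 9 of 10 slow fibre and 11 of 14 other sarcomere genes were at least 1 log2 unit above the median of the arrays without muscle RNA, where 4.46% of all probes were. MYL2 of slow fibres was well above background on none of the 13, and low-RFI replicate 8 exceeded their detection floor by at least 13119-fold. MYH4, a fast myosin heavy chain, stood 13.06 higher and CSRP3 12.77 higher, but only 1 and 2 of the 13 arrays measured them. MYOZ1, a Z-disc protein of fast fibres measured on 12 of the 13, stood 12.11 higher. XIRP2, an actin-binding repeat protein measured on 5, stood 11.39 higher. Of 7 genes of excitation and calcium release 5 passed, with SLN, an inhibitor of the calcium pump, at 11.11 and RYR1, the calcium release channel, at 8.16. Of 16 muscle metabolism genes 9 passed, with COX8H, a muscle form of a cytochrome oxidase subunit, at 12.82 (measured on 1 of the 13), and MB, myoglobin, at least 242-fold above the detection floor. Of 9 myogenic regulators 5 passed, with RBM24, a splicing regulator, at 4.48 and MYOD1, the myogenic transcription factor, at least 2.26-fold above the floor. ACTC1, cardiac and fetal actin, stood 4.89 higher.

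On low-RFI replicate 6 and high-RFI replicate 7 fewer of these genes passed, namely 6 and 4 fast fibre, 3 and 3 slow fibre, 4 and 2 sarcomere, 2 and 2 calcium release, 2 and 2 metabolism and 0 and 0 regulator genes (2.94% and 3.83% of all probes). Some were lower by 1 log2 unit or more, as 3.66%, 3.04% and 3% of all probes were on low-RFI replicate 8, low-RFI replicate 6 and high-RFI replicate 7. On low-RFI replicate 8 this was FBXO32, a muscle ubiquitin ligase, at -1.19, and on low-RFI replicate 6 PGM1, a glycogen enzyme, at -2.62. On high-RFI replicate 7, 2 sarcomere genes were lower, FBXO32 at -1.65 and CAPN3, a muscle protease, at -1.41, as were 2 metabolism genes, SLC2A4, the insulin-responsive glucose transporter, at -1.17 and CA3, a carbonic anhydrase, at -1.06. These lower genes were named after their values were seen. MB was well above background on low-RFI replicate 8 and on no other array. MYL2 was well above background on the 3 arrays with muscle RNA and on no other, at 7.55 on low-RFI replicate 8, -1.68 on low-RFI replicate 6 and -2.56 on high-RFI replicate 7, against -8.91 to -6.79 elsewhere.

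Markers of other tissues gave a different picture on these arrays. The heart hormones NPPA and NPPB were not well above background on any of the 16 arrays, and no heart marker of 3 rose by 1 log2 unit on the 3 arrays. Of 13 adipocyte markers 0 differed by 1 log2 unit on low-RFI replicate 8 (median difference 0.0027) or low-RFI replicate 6 (median -0.23), and on high-RFI replicate 7 LEP, at -1.48, and CIDEC, at -1.03, were lower. On low-RFI replicate 8, 2 adipocyte markers lay just below all 13 arrays and 0 above. These were PLIN1 at 1.58 (lowest of the 13 arrays 1.59) and FABP4 at 8.29 (lowest 8.34). Smooth muscle markers were 1 log2 unit or more above the median in 2 of 5 on low-RFI replicate 8, namely ACTA2 by 2.09 and CNN1 by 1.70, and in 0 of 5 on the other pair. CNN1 read 3.22 on low-RFI replicate 8, within the -0.11 to 4.22 of the 13 arrays. The ACTA2 value is from another probe than the one set beside ACTA1, which read 7.78 on low-RFI replicate 8, against 2.59 to 4.51 on the 13 arrays. High-RFI replicate 7 also had 5 of 7 epithelial markers raised by 1 log2 unit or more, with CLDN4, a tight junction protein, at 3.90 and SFN at 3.18, and 2 of 5 nerve markers, with PMP2 at 3.28 and MBP at 2.99, both proteins of myelin. The summed signal of the 7 epithelial markers there was 6.79 times the 75th percentile, within the 0.611 to 15.7 of the 13 arrays, and that of the nerve markers was 14.8, above their 1.33 to 12.7. The part of epithelial or nerve tissue in the muscle values of that array was not tested. Fewer muscle cells and less RNA per cell cannot be told apart on any array.

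The genes whose pattern was most like that of the members shared a high level on low-RFI replicate 8. Among 4517 named genes, the 10 with the highest Pearson correlation with the mean of the members over the 16 arrays were ENO3 (r = 0.987), PGAM2, MYOZ1, COX8H, MYOZ3, SLN, RYR1, ATP2A1, CACNG1 and SMPX (r = 0.971). ENO3 and PGAM2 are muscle enzymes of glycolysis, and all 10 are on the muscle lists. They stood 6.67 to 12.82 above the median of the 13 arrays on low-RFI replicate 8, 0.44 to 4.51 on low-RFI replicate 6 and 0.09 to 2.76 on high-RFI replicate 7. On high-RFI replicate 7 ATP2A1, CACNG1 and SMPX lay within the range of the 13 arrays. Over the 13 arrays without muscle RNA ENO3 gave r = 0.05, and the 5 closest genes were RIC1 (r = 0.809), SLC30A8, AEBP2, ARNT and NPTX1 (r = 0.759), none of them on the muscle lists. Among the members themselves, the representative probes of MYLPF and TNNT3 correlated at 0.82 over these 13 arrays and MYL1 and MYH1 at -0.65, so the members did not move as one there.

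The design compares the lines, and over all 16 arrays the mean of each member probe was higher in low-RFI pigs. All 73 probes had a positive difference of low-RFI minus high-RFI, from 0.09 to 2.61 with a median of 1.63, where 46.2% of all 43602 probes tested were positive and the median of all probes was -0.02. By line medians, the representative probes of ACTA1, MYH7 and TNNT3 were lower in low-RFI pigs. Those of MYL1, TNNI2, MYLPF, MYH1, TNNT1, TNNI1 and CKM were higher. MYL1 averaged -2.75 ± 4.82 in low-RFI pigs and -4.75 ± 1.55 in high-RFI pigs (SD, n = 8 each) by its probe at base 711, which differ by 2.01 (SE 1.67, 95% interval -1.52 to 5.54). TNNT1 averaged -1.84 ± 4.0 in low-RFI pigs and -3.23 ± 0.76 in high-RFI pigs (SD, n = 8 each), which differ by 1.38 (SE 1.34, 95% interval -1.45 to 4.22). The spread exceeded the difference in both genes. In the limma fit across all probes 0 of the 73 members passed an adjusted p of 0.05, as did 0 of 43602 probes (0%). At an unadjusted p under 0.05 there were 0 members and 1782 probes (4.09%).

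The line difference of the members rested on low-RFI replicate 8. Without it the median over the 73 probes was 0.18. Within slides 1, 2, 3 and 4 the median was 0.10, -0.10, 0.46 and 5.80, and low-RFI replicate 8 was on slide 4. Within slide 1, which held no array with muscle RNA, 13 of the 73 probes had an unadjusted p under 0.05 in the limma fit (2.61% of all probes) and 0 passed after adjustment. That slide held 2 pigs per line. Probes of the same gene are not independent readings, so the 13 are not separate results and nothing is read from their share.

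After the 3 arrays with muscle RNA were removed, 6 low-RFI and 7 high-RFI arrays were left, and the difference lay around 0. Of the 73 probes 38 were higher and 35 lower in low-RFI pigs, where 49.8% of all probes were higher, and the median difference was 0.04, from -1.37 to 0.72. MYL1 averaged -5.12 ± 0.41 in low-RFI pigs (SD, n = 6) and -5.28 ± 0.46 in high-RFI pigs (SD, n = 7), which differ by 0.16 (SE 0.23, 95% interval -0.35 to 0.66). TNNI2 averaged -3.18 ± 0.21 in these low-RFI pigs and -3.17 ± 0.12 in the high-RFI ones, which gives -0.01 for low-RFI minus high-RFI (SE 0.11, 95% interval -0.25 to 0.23). TNNT1 averaged -3.59 ± 0.39 in low-RFI pigs and -3.46 ± 0.38 in high-RFI pigs, which differ by -0.12 (SE 0.21, 95% interval -0.57 to 0.32). All 3 differences were within the spread of the pigs.

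In that limma fit 0 of 73 members and 0 of 43602 probes (0%) passed an adjusted p of 0.05, and 1 member and 1491 probes (3.42%) had an unadjusted p under 0.05. That member was the MYH1 probe at base 5659, with a difference of -1.37 (SE 0.51, adjusted p = 0.9997 in limma), and it shares 20 bases with a MYH4 probe. The other 6 MYH1 probes ranged from -1.14 to 0.15. Of the 11 CKM probes 10 were higher in low-RFI pigs, by up to 0.39 (SE 0.32). The intervals of 40 of the 73 probes reached 1 log2 unit in at least one direction. A doubling in low-RFI pigs is within the interval of 19 probes, a doubling in high-RFI pigs within that of 26, and both within that of 5.

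ACTA1 differed by probe again. Its 7 later probes had differences between -0.0045 and 0.62 between these low-RFI and high-RFI pigs. Its 9 earlier probes had differences of -0.87 to 0.22. The probe at base 644 differed by -0.86 (SE 0.46), and 4 of its 5 high arrays were high-RFI. Among the smooth muscle markers the difference was -0.49 for the other ACTA2 probe and -1.43 for CNN1. It was -0.42 for MYLK, -0.44 for MYL9 and 0.0038 for SMTN.

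**Figure D5:**
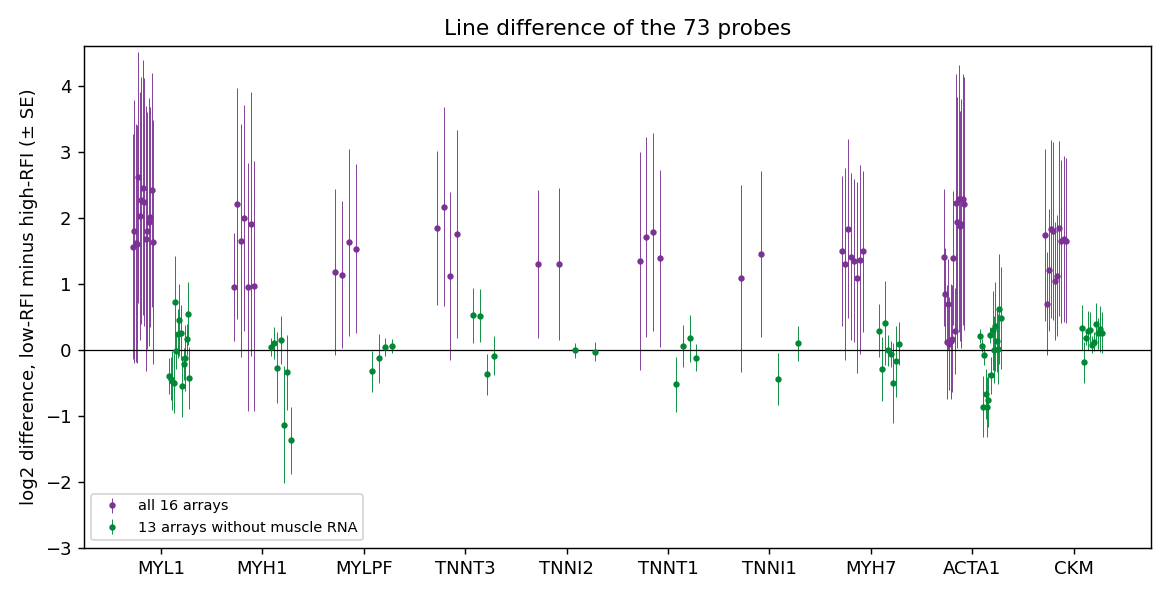
Line difference (low-RFI minus high-RFI, log2, ± SE) of each of the 73 probes by gene, over all 16 arrays and over the 13 arrays without muscle RNA. Over 16 arrays all 73 points are above 0 with wide errors, and over 13 arrays 38 are above and 35 below.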

How the data were processed

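The members and gene lists were chosen with earlier results of these data known. Per the file headers, the deposited intensities are Agilent Feature Extraction 10.7.3.1 output: the processed intensity is background-subtracted and not normalised between arrays, and the mean and local background intensities are uncorrected. Per the labels' protocols, Cy3-labelled complementary RNA was made from 150 ng of total RNA per array. The deposited value table holds log2 values that, on every array, matched the log2 processed intensity after subtraction of the median over its 28963 spots (r = 1). The submitters' processing notes name R 2.10.0.

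Spots flagged as outliers were dropped, spots of a probe averaged, and log2 processed intensities scaled to the 75th percentile. Lines were compared over all 43602 testable probes with limma 3.58.1 in R 4.3.3, with Benjamini-Hochberg adjustment at 0.05, on 16 arrays and on the 13 without muscle RNA. The fit was also run on simulated data with normal spread in each probe. Those data held no outlying array like low-RFI replicate 8, so that run says nothing about the member values. Probe sequences were compared with BLAST 2.17.0 and come from the scanner files; of the probes, 10592 carry a symbol. Where the labels give one pig per array, the number of arrays limits the precision. Named were all members, up to 4 genes per list with the largest difference on low-RFI replicate 8, list genes above background on no array, and the genes most correlated with the members. FABP4, PLIN1, PPARG, CEBPA, ADIPOQ, LEP, CIDEC, CLDN4, SFN, PMP2, MBP, TNNC1 and TNNC2 were named partly outside that rule, after their values were seen. So were MYLK, MYL9 and SMTN. Same-numbered pigs of the lines correlated at -0.293 to 0.319. For replicate 5 this was 0.128, above the highest value with another number (0.0987). Such correlations cannot show whether replicate numbers pair the pigs, and the main fits took the pigs as unpaired. Alternatives covered scaling, background correction, dim-probe filters, the deposited table, blocks, array weights and left-out arrays.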

Additional observations from a re-analysis of the deposited data

Results flagged for a closer look

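For 14 of the 20 combinations of gene and line, 1 array lay far from the other 7 of its line, by the gap between it and its nearest neighbour relative to the range; chance alone marks about 1 in 20 groups, a rate that does not apply here because the genes were chosen for their levels on these arrays. Low-RFI replicate 8 was that array for TNNT3 (7.88), TNNI2 (6.46), MYLPF (8.80), MYH1 (2.53), TNNT1 (7.76), TNNI1 (5.21), MYH7 (7.84), ACTA1 (8.97) and CKM (6.24). High-RFI replicate 7 was that array for MYL1 (-1.06), TNNT3 (-1.68), TNNI2 (-2.16), MYLPF (0.79) and TNNT1 (-1.56). MYL1 on low-RFI replicate 8, at 7.99, was not marked because low-RFI replicate 6 stood between it and the rest.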

How the results depend on the processing

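The rule marked 3 arrays also at 0.5 log2 units, with median or quantile scaling and with ACTA1 read from its later probes (chosen after seeing the data). It marked 2 at 2 log2 units and 2 with normexp background, and 1, low-RFI replicate 8, on the other muscle lists. With the 95th percentile of negative control spots as the background limit, 46 member probes in place of 30 passed on all 13 arrays. The share of all probes past that limit is not given here. The fast to slow ratio stayed between 2.39 and 3.13 on low-RFI replicate 6 and between 1.29 and 1.64 on high-RFI replicate 7. In limma, 0 probes were called for the lines with other scalings, background correction, dim-probe filters, the deposited table, array weights, slide as a block and within single slides where a test was possible, over 16 and over 13 arrays; within slide 3 the 13-array set had 1 pig per line and no test. With replicates 1 to 4 only, 4 probes were called, none of them a member. Leaving out 1 array gave 0 to 1 calls over 16 arrays (1 without low-RFI replicate 2 or 4) and 0 to 1 over 13 arrays (1 without high-RFI replicate 3). With the replicate number as a block 0 probes were called, and the median over the members was 1.63 over 16 arrays and -0.10 over 13. Within slide 4 it was 5.80, which was more than the spread of the pigs away from 1.63. Leaving out 1 array gave 0.18 to 1.97 over 16 arrays and -0.03 to 0.07 over 13. Of 570 gene differences recomputed, 554 moved by less than 1 SD and 16 by more, 13 of them within slide 4. The cause was not tested. For the 16-array differences this SD, computed within the lines, included low-RFI replicate 8, and was 2.92 for the member median. Leaving that array out took the member median from 1.63 to 0.18 and still counted as less than 1 SD. The count therefore does not measure how far the differences rest on that array.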
